A study of Mus musculus with 18 samples.

Results

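Astrocytes and microglia, the principal supporting and immune cells of the brain, both release small extracellular vesicles (sEVs), and the messenger RNA of those vesicles was compared here between the 2 sources. The comparison took the 3 libraries of astrocyte sEVs and the 3 of microglia sEVs, 6 of the 18 libraries of the series. It kept the genes with a normalized count of at least 10 in at least 3 of the 6, which left 12238 of 54307 genes. The libraries came from vesicles released by primary cultures of mouse brain cells. The series also holds 3 libraries each of the astrocytes and of the microglia themselves, used below where vesicles and cells are set side by side, and neuron cell and sEV libraries, which were not compared here. RNA was primed with poly(dT) and copied to complementary DNA by a low-input kit before fragmentation, a protocol that does not keep the strand. The labels give no strain, genotype, sex, age or treatment for any group, so no agent or allele can be named for either source. They number the replicates of a group from 1 to 3 without saying whether these came from separate cultures, so every p-value below measures the spread between these samples, which may be technical. All values are the authors' normalized counts, a log2 difference is astrocyte sEVs minus microglia sEVs on the log2(count + 1) scale with its standard error, and adjusted p-values are from limma over all genes tested, called at 0.05. That scale understates the difference of low genes, and no fold is given where a gene is listed at 0 in all 3 libraries of a group. Every tested gene of that kind was called, so its p-value is no support for a difference.

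sEVs are membrane vesicles that cells shed from endosomes and from the cell surface, and they carry proteins, lipids and RNA of the cell that made them. Astrocytes take up glutamate and potassium, carry water and supply neurons with metabolites, and are known by the filament protein GFAP. Microglia are the resident macrophages of the brain: they sense microbial and tissue signals through Toll-like and Fc receptors, and once activated they make cytokines, chemokines, complement and the products of interferon-responsive genes.

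The labelled cell of origin was checked first against markers. Gfap, the intermediate filament protein that defines astrocytes, measured 366239.8, 365533 and 648097 in astrocyte sEVs and 2231, 2513 and 1087 in microglia sEVs (log2 difference 7.92 ± 0.4, adjusted p = 0.000198). Every astrocyte sEV library thus lay far above every microglia sEV library. Aldoc, an aldolase of astrocytes, measured 43181, 28315 and 62018 in astrocyte sEVs and 1629, 1164 and 1539 in microglia sEVs, with the same order of the groups (log2 difference 4.89 ± 0.33, adjusted p = 0.000198). S100b, a calcium-binding protein, was listed at 0 in all 3 microglia sEV libraries and measured 5289, 2894 and 2029 in astrocyte sEVs (adjusted p = 0.000198). Its counts were thus confined to one of the groups. The astrocyte transcription factor Sox9 gave 35570.4, 46857 and 23970.2 in astrocyte sEVs and 0, 145 and 7.26 in microglia sEVs (log2 difference 11.65 ± 1.8, adjusted p = 0.00349). The glutamate transporter Slc1a2 measured 14923, 28292 and 6776 in astrocyte sEVs and 0, 40.3 and 0 in microglia sEVs (log2 difference 12 ± 1.71, adjusted p = 0.00244). Both were low or at 0 in each microglia sEV library and high in each astrocyte one. The other glutamate transporter, Slc1a3, the water channel Aqp4 and the gap junction protein Gja1 were also higher in astrocyte sEVs, at log2 differences of 4.09 ± 1.2 for Slc1a3, 10.23 ± 2.24 for Aqp4 and 3.54 ± 0.78 for Gja1 (adjusted p = 0.0403, 0.0143 and 0.0149). These 3 calls were lost with 1 library fewer, while the differences stayed of similar size. Without astrocyte sEV replicate 1, 2 or 3 the log2 difference of Aqp4 was 10.04, 10.08 and 10.57 (adjusted p = 0.0606, 0.0634 and 0.0544). That of Gja1 was 3.53, 3.46 and 3.62 (adjusted p = 0.0534, 0.0608 and 0.0548), and that of Slc1a3 4.22, 3.8 and 4.25 (adjusted p = 0.0989, 0.133 and 0.108). Slc1a3 also missed the threshold without microglia sEV replicate 3 (log2 difference 4.7, adjusted p = 0.0509), with no filter on low values (adjusted p = 0.0579) and without a variance trend (adjusted p = 0.0569). The folate enzyme Aldh1l1 measured 5529.6, 5090.2 and 8733 in astrocyte sEVs and 0, 806 and 1311 in microglia sEVs, and its difference did not pass (adjusted p = 0.143), although without microglia sEV replicate 1, its only library at 0, it did (adjusted p = 0.0062). Not every astrocyte marker set the groups apart. Glutamine synthetase, Glul, overlapped between the groups at 5943, 7239 and 8689.6 in astrocyte sEVs and 5612, 4059 and 6335 in microglia sEVs (adjusted p = 0.198).

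Microglia markers showed the opposite order. Tyrobp, the signalling adaptor of microglial receptors, measured 0, 129.9 and 19 in astrocyte sEVs and 32588, 22377 and 27441 in microglia sEVs (log2 difference -10.94 ± 1.76, adjusted p = 0.00412). The complement component C1qa measured 0, 0 and 27.8 in astrocyte sEVs and 9024, 5254 and 10625 in microglia sEVs (log2 difference -11.34 ± 1.56, adjusted p = 0.00213). Trem2, a lipid-sensing receptor, measured 0, 103 and 50.7 in astrocyte sEVs and 19301, 14982 and 16742 in microglia sEVs (log2 difference -9.91 ± 1.79, adjusted p = 0.00668). In each of these, astrocyte sEV replicate 1 was listed at 0, and every microglia sEV library lay far above all astrocyte ones. Aif1 measured 0, 0 and 5.79 in astrocyte sEVs and 18832, 25067 and 20371 in microglia sEVs (log2 difference -13.46 ± 1.04, adjusted p = 0.00021). Spi1, the transcription factor of the macrophage lineage, measured 0, 70.2 and 0 in astrocyte sEVs and 20383, 13789 and 17285 in microglia sEVs (log2 difference -12 ± 1.82, adjusted p = 0.00326). The order of the groups was the same in all of these genes. Csf1r, the receptor for colony-stimulating factor, measured 54.5, 0 and 0 in astrocyte sEVs and 1396, 399.5 and 625 in microglia sEVs (log2 difference -7.53 ± 1.84, adjusted p = 0.0216). Its call was lost without astrocyte sEV replicate 2 or 3 (log2 difference -6.56 in both, adjusted p = 0.0839 and 0.0832) and without microglia sEV replicate 1 or 3 (0.0535 and 0.0509). Among the defining microglia markers, some surface receptors gave less certain values. The integrin Itgam (0, 171 and 26.1 in astrocyte sEVs and 354, 366 and 1662 in microglia sEVs, adjusted p = 0.0978) and the nucleotide receptor P2ry12 (0, 0 and 78.5 in astrocyte sEVs and 869, 153 and 270.2 in microglia sEVs, adjusted p = 0.0515) did not overlap between the groups and did not pass, although P2ry12 passed without astrocyte sEV replicate 3 (adjusted p = 0.00653). The chemokine receptor Cx3cr1, at 0 in all astrocyte sEV libraries and at 1.26, 456 and 1006 in microglia sEVs, did not pass the filter on low values. Tmem119, a marker of microglia in the living brain, was listed at 0 in all 6 libraries and was not tested.

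**Figure D1:**
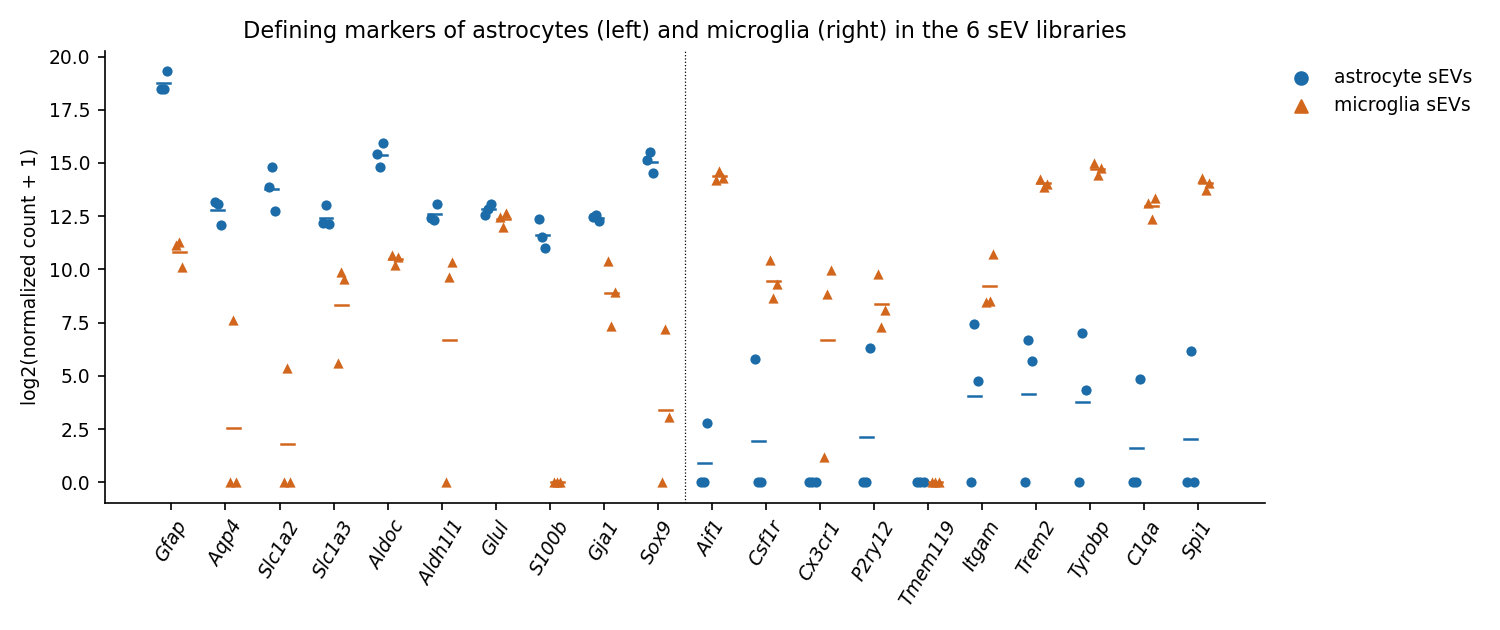
Log2(normalized count + 1) of the defining astrocyte and microglia markers named in the text, in each of the 3 astrocyte sEV libraries and the 3 microglia sEV libraries; each point is 1 library. Gfap, Aldoc and Sox9 sit high in astrocyte sEVs, Aif1, Tyrobp and Spi1 sit high in microglia sEVs, and Glul overlaps between the groups.

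Taken over whole marker lists, 24 of the 31 astrocyte markers tested (36 in the table) were called higher in astrocyte sEVs and 0 higher in microglia sEVs, with a median log2 difference of 6.46. Across all genes tested, 39.4% were called, 25% higher in astrocyte sEVs and 14.4% higher in microglia sEVs, and the median difference was 1.26. Every list count and list median below is to be read beside these values. The astrocyte count fell to 13 without astrocyte sEV replicate 1, 2 or 3, and 1 marker was called the other way without replicate 2. Of 34 microglia markers tested (38 in the table), 30 were called higher in microglia sEVs, and the median difference was -10.97. Of the others, 3 were not called, and 1 was called higher in astrocyte sEVs. That marker was Sall1, a transcription factor named with microglia, which measured 4658, 12025 and 8247 in astrocyte sEVs and 209, 902 and 876 in microglia sEVs (log2 difference 3.81 ± 0.71, adjusted p = 0.00734). Without microglia sEV replicate 1, with a pseudocount of 10 and after quantile normalization a second marker joined it. Many of these differences set a level against 0: among markers above 0 in all 6 libraries, the median was 2.81 over 15 astrocyte markers and -6.26 over 7 microglia markers. The summed microglia markers were 10244, 25519 and 16044 in astrocyte sEVs and 1400161, 1134911 and 1314333 in microglia sEVs, and the summed astrocyte markers were 93250.5, 88186 and 86182 in microglia sEVs and 827157, 839038 and 1170848 in astrocyte sEVs. Microglia markers at a count of at least 10 numbered 6, 20 and 23 of 38 in astrocyte sEV replicates 1, 2 and 3.

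The libraries differed in more than these markers. Normalized counts summed to between 40672561 and 52394530 in astrocyte sEVs and between 53956745 and 54740814 in microglia sEVs. Genes at a count of at least 10 numbered 12760 ± 1248 (SD, n = 3) in astrocyte sEVs and 9255 ± 1229 (SD, n = 3) in microglia sEVs, without overlap (exact permutation test, two-sided, p = 0.1, the smallest that 3 against 3 allows; 0.117 after adjustment over 7 library measures). The ferritin light chain Ftl1 alone took 16.1% ± 5.21 (SD, n = 3) of all counts in astrocyte sEVs and 4.52% ± 0.529 (SD, n = 3) in microglia sEVs. The astrocyte sEV libraries therefore held more genes and a larger share of a single one. Over the genes tested, log2 counts correlated at 0.735 to 0.834 between libraries of one group and at 0.164 to 0.288 between groups, across genes, which are not replicates.

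limma called 4824 of the 12238 genes, 3056 higher in astrocyte sEVs and 1768 higher in microglia sEVs, and 6075 had an unadjusted p under 0.05. Libraries of the 2 groups did not overlap for 7034 genes (57.5%), among them all 4824 called. The excess on the astrocyte side lay among genes that were not above 0 in all 6 libraries. Of these, 1413 genes were listed at 0 in all 3 microglia sEV libraries and 296 in all 3 astrocyte sEV libraries. Genes at 0 in a whole group entered the comparison through the other group alone and were all called. Neither their number nor the p-value of any of them is therefore support for a difference. Among the 6297 genes above 0 in all 6 libraries the median difference was 0.04, with 856 called higher in astrocyte sEVs and 1104 higher in microglia sEVs. The split between directions also moved with the scaling: after quantile normalization 2365 genes were higher in astrocyte sEVs and 2211 in microglia sEVs, and the median over all genes tested was 1.11 lower, at 0.15. With all 6 libraries set to equal totals the split was 3412 and 1476. In bulk samples such as these, fewer vesicles of a kind and less of an RNA per vesicle cannot be told apart.

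**Figure D2:**
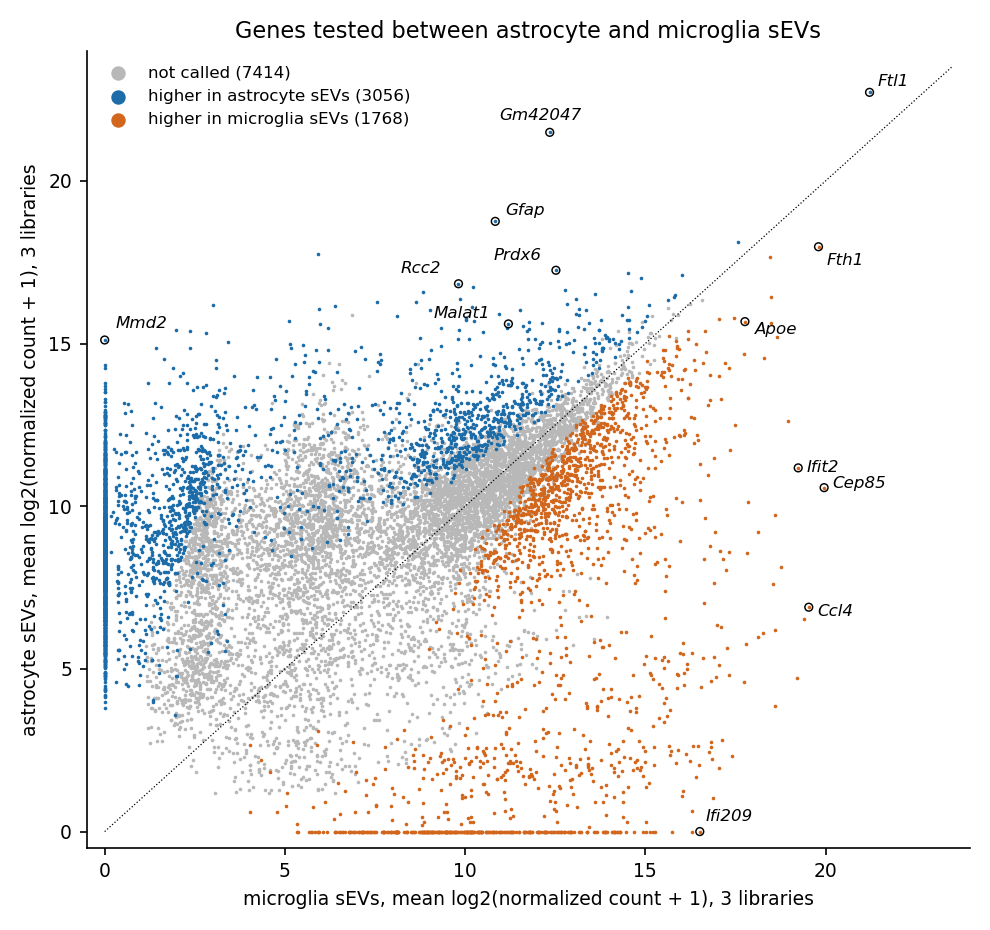
Mean log2(count + 1) of each tested gene in the 3 microglia sEV libraries (x axis) and the 3 astrocyte sEV libraries (y axis), coloured by the limma call at an adjusted p of 0.05. Called genes lie on both sides of the diagonal, with Gfap and Gm42047 far on the astrocyte side and Cep85 and Ifi209 far on the microglia side.

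Ferritin messages took the largest share of the counts, which are not corrected for gene length. Ftl1, the light chain of the iron-storage protein ferritin, had the highest mean count in both groups, at 4991032, 11547426 and 5743832 in astrocyte sEVs and 2488596, 2138478 and 2738143 in microglia sEVs. Astrocyte sEV replicate 2 was the highest and every astrocyte library lay above every microglia one (log2 difference 1.5 ± 0.32, adjusted p = 0.0133), a call that was lost without a variance trend (adjusted p = 0.0547) and under quantile normalization, which sets the top gene equal. The heavy chain, Fth1, went the other way, at 234867, 325448 and 224036 in astrocyte sEVs and 997513, 842090.03 and 913276 in microglia sEVs (log2 difference -1.83 ± 0.15, adjusted p = 0.000269). The 2 chains of the same protein thus had opposite orders in the same 6 libraries. Second in astrocyte sEVs came Gm42047, a predicted gene of unknown function, at 2563518, 3393069.9 and 2951247 in astrocyte sEVs and 989, 27896 and 5119.8 in microglia sEVs (log2 difference 9.15 ± 1.16, adjusted p = 0.00148). Microglia sEV replicate 2 held far more of it than replicates 1 and 3. Second in microglia sEVs came Cep85, which encodes a centrosomal protein, at 1138, 1874 and 1647 in astrocyte sEVs and 1066830.2, 1053358 and 943197 in microglia sEVs (log2 difference -9.39 ± 0.2, adjusted p = 0.000116), and its 3 microglia sEV libraries agreed closely.

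Besides these, the 10 highest mean counts of astrocyte sEVs were those of Gfap, the translation elongation factor Eef1a1, Fth1, the ubiquitin gene Ubb, the noncoding clone 5031425E22Rik, the phosphoprotein Pea15a, the peroxiredoxin Prdx6 and the ribosomal stalk protein Rplp0. Pea15a measured 112689, 178602 and 161571 in astrocyte sEVs and 29484, 16326 and 26412 in microglia sEVs (log2 difference 2.67 ± 0.28, adjusted p = 0.000649). Prdx6 measured 129427, 165923 and 177330.3 in astrocyte sEVs and 6105, 5259 and 6288 in microglia sEVs (log2 difference 4.73 ± 0.15, adjusted p = 0.000198), so the 6 libraries fell into tight and separate groups. Rplp0 measured 135631, 140404 and 145054 in astrocyte sEVs and 63003, 64303 and 73909.7 in microglia sEVs (log2 difference 1.07 ± 0.08, adjusted p = 0.000205). For Rplp0 too the groups stood apart with little spread. Eef1a1 differed by less, at 308438, 261678 and 292027 in astrocyte sEVs and 179102, 221825 and 185457 in microglia sEVs (log2 difference 0.56 ± 0.1, adjusted p = 0.00768), and missed the threshold without a variance trend (adjusted p = 0.225) and without astrocyte sEV replicate 1 (log2 difference 0.51, adjusted p = 0.0577). 5031425E22Rik was near 0 in microglia sEVs, at 190125, 241305 and 227793 in astrocyte sEVs and 0, 919 and 238 in microglia sEVs (log2 difference 11.82 ± 2.51, adjusted p = 0.0127). Without astrocyte sEV replicate 2 or 3 its difference was nearly the same, at 11.75 and 11.79, and its call was lost (adjusted p = 0.0553 and 0.0549). Ubb was lower in astrocyte sEVs, at 249779, 149345 and 232387 in astrocyte sEVs and 304584, 401374 and 385735 in microglia sEVs (log2 difference -0.81 ± 0.22, adjusted p = 0.0315), a direction that turned under quantile normalization (log2 difference 0.83, adjusted p = 0.0163). Its call was lost with equal totals (log2 difference -0.53, adjusted p = 0.227), with equal totals without Ftl1 (-0.34, adjusted p = 0.346) and without a variance trend (adjusted p = 0.154). It was lost too without astrocyte sEV replicate 3 or microglia sEV replicate 2 or 3, at log2 differences of -0.9, -0.74 and -0.77 (adjusted p = 0.07, 0.0913 and 0.0874).

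In microglia sEVs the highest mean counts besides Ftl1, Cep85 and Fth1 were those of the chemokines Ccl4, Ccl3 and Ccl5, the interferon-induced RNA-binding proteins Ifit2 and Ifit1, the syndecan Sdc4 and the actin-sequestering peptide Tmsb4x. Ccl4 measured 0, 1365 and 1236 in astrocyte sEVs and 875291, 735542 and 679619 in microglia sEVs (log2 difference -12.64 ± 2.87, adjusted p = 0.0164). Ccl3 measured 0, 1069 and 720.02 in astrocyte sEVs and 727688, 806912 and 570252 in microglia sEVs (log2 difference -12.89 ± 2.71, adjusted p = 0.0124). Both chemokines were listed at 0 in astrocyte sEV replicate 1 and low in replicates 2 and 3. Ccl5 measured 134, 469 and 356 in astrocyte sEVs and 393227, 532433 and 419772 in microglia sEVs (log2 difference -10.62 ± 0.48, adjusted p = 0.000198). Ifit2 measured 1561, 4728 and 1684 in astrocyte sEVs and 616852, 562339.7 and 685586 in microglia sEVs (log2 difference -8.06 ± 0.44, adjusted p = 0.000198). Ifit1 measured 0, 14.2 and 1197 in astrocyte sEVs and 615521, 581262 and 628778 in microglia sEVs (log2 difference -14.5 ± 2.48, adjusted p = 0.00533). The 3 microglia sEV libraries agreed closely for both Ifit genes, while the astrocyte ones spread widely for Ifit1. Sdc4, a cell-surface proteoglycan, measured 4902, 10382 and 4919 in astrocyte sEVs and 537333, 575440.5 and 434184 in microglia sEVs (log2 difference -6.34 ± 0.32, adjusted p = 0.000198). Tmsb4x measured 42362, 22994 and 54584 in astrocyte sEVs and 394182, 441363 and 396480.5 in microglia sEVs (log2 difference -3.45 ± 0.31, adjusted p = 0.000352).

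The largest differences in favour of astrocyte sEVs, among genes that were called and averaged 50 or more there, predicted genes left out, were mostly of genes listed at 0 in microglia sEVs. Mmd2, a membrane protein of the Golgi, measured 29072, 44733 and 33944 in astrocyte sEVs and 0 in each microglia sEV library (adjusted p = 0.000198). No microglia sEV library held a count of it. Bcas1, a gene of newly formed myelinating oligodendrocytes, measured 31119, 18966 and 15229 against 0 (adjusted p = 0.000198). Lifr, the receptor of leukemia inhibitory factor, measured 16837, 30165 and 14441 against 0 (adjusted p = 0.000198). Tril, a co-receptor of Toll-like receptors, measured 13537, 18146 and 11426 against 0 (adjusted p = 0.000198). Bcas1, Lifr and Tril were thus at 0 in every microglia sEV library. Sall2, Phyhipl, Peg12, Zfp660, Cerox1 and Amer2 were likewise at 0 in every microglia sEV library and between 7612 and 17292 in the astrocyte ones. The transcriptional regulators Mn1 and Zhx3 each had 1 microglia sEV library above 0: Mn1 measured 18462, 56352 and 25379 in astrocyte sEVs and 0, 18 and 0 in microglia sEVs (log2 difference 13.45 ± 1.39, adjusted p = 0.000592). Zhx3 measured 25483, 102531 and 32007 in astrocyte sEVs and 0, 0 and 59.6 in microglia sEVs (log2 difference 13.44 ± 1.8, adjusted p = 0.00187).

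At the other end stood interferon-induced genes. Ifi209, of the family of DNA sensors that carry a pyrin domain, was listed at 0 in all 3 astrocyte sEV libraries and measured 97879.9, 87409.6 and 95011 in microglia sEVs (adjusted p = 0.000198). The related Ifi211 measured 0, 1.3 and 53.3 in astrocyte sEVs and 172513, 170666 and 172853 in microglia sEVs (log2 difference -15.07 ± 1.5, adjusted p = 0.000507). Both members of the family were nearly confined to microglia sEVs. Iigp1, an immunity-related GTPase that attacks vacuoles holding pathogens, measured 0, 0 and 7.32 in astrocyte sEVs and 121079, 118107 and 119291 in microglia sEVs (log2 difference -15.85 ± 0.97, adjusted p = 0.000198). Ifi47, of the same family, measured 0, 2.65 and 0 in astrocyte sEVs and 69727, 86490.01 and 85392 in microglia sEVs (log2 difference -15.67 ± 0.77, adjusted p = 0.000198). In these 4 genes the microglia sEV libraries lay within a narrow range and the astrocyte sEV libraries were at or near 0. Gbp9, Oasl1, Mx1 and Il15 were at 0 in every astrocyte sEV library and between 26877 and 48889 in the microglia ones. Arhgdib, a regulator of small GTPases in blood cells, measured 45393, 61508 and 58639 against 0 (adjusted p = 0.000198). The inflammatory cytokine Il1b measured 0, 0 and 55.7 in astrocyte sEVs and 131048, 161567 and 115858 in microglia sEVs (log2 difference -15.1 ± 1.66, adjusted p = 0.000796). Lilrb4a, a symbol that 2 gene identifiers share, also ranked there, and its counts may be split between them.

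The interferon list lay almost wholly on that side. All 65 of its genes passed the filter, and 64 were called higher in microglia sEVs, where 14.4% of all genes tested were called in that direction; 0 were called higher in astrocyte sEVs. The median log2 difference was -10.35, and -7.01 over the 23 members above 0 in all 6 libraries. The member that missed was the oligoadenylate synthetase Oas2, at 0, 84.4 and 21.2 in astrocyte sEVs and 118, 944 and 1190.5 in microglia sEVs (adjusted p = 0.0798). Interferon-responsive genes are switched on through the interferon-stimulated response element (ISRE), whose core was searched as GAAA, any 2 bases and GAAA, on both strands. The promoters of 4 members are shown because they hold that core, in capitals, on either strand; they run 250 bases before to 50 after the gene's start and are RefSeq sequences of GRCm38.p6, at chr4:156200769-156201068 on the minus strand for Isg15, chr19:34640639-34640938 on the plus strand for Ifit1, chr19:34583279-34583578 on the plus strand for Ifit3 and chr12:26456403-26456702 on the minus strand for Rsad2.
Isg15: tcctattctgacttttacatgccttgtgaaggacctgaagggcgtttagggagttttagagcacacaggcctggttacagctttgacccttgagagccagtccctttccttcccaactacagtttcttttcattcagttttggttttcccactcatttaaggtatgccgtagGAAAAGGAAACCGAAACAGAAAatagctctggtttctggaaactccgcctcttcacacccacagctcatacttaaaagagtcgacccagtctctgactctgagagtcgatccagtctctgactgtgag
Ifit1: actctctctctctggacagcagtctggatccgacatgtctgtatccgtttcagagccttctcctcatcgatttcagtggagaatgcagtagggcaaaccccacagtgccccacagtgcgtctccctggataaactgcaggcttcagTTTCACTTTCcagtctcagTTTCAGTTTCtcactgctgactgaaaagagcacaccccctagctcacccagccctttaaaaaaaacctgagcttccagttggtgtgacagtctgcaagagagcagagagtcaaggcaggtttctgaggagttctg
Ifit3: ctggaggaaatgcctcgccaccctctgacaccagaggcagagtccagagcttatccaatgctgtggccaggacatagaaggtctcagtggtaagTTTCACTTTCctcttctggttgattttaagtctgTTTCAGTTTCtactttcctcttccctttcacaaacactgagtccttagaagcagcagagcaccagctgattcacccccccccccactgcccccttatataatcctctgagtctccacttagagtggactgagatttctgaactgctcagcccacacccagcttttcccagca
Rsad2: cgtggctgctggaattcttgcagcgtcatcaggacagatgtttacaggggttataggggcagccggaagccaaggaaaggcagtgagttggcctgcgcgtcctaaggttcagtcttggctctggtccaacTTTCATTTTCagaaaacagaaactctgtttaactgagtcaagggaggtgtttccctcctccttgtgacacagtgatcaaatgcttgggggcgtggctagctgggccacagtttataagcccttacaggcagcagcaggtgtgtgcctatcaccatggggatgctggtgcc
Of the interferon genes, 50 had a promoter in the RefSeq table, and 30 of these (60%) held the core in at least 1 promoter, against 1079 of 27025 genes (3.99%) and 1131 of 32851 promoters (3.44%) in the table as a whole, 2 of 30 astrocyte markers (6.67%) and 2 of 28 microglia markers (7.14%). A match describes these letters and shows no binding.

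Besides Ifit1, given above, the genes with printed promoters were also high in microglia sEVs. Isg15, the ubiquitin-like modifier, measured 0, 165 and 59.6 in astrocyte sEVs and 83949.99, 102641 and 101522 in microglia sEVs (log2 difference -12.11 ± 1.9, adjusted p = 0.00368). Ifit3, a partner of Ifit1 in binding viral RNA, measured 532, 1966 and 586 in astrocyte sEVs and 397068, 357517 and 442942 in microglia sEVs (log2 difference -8.87 ± 0.52, adjusted p = 0.000198). Rsad2, the antiviral enzyme viperin, measured 273, 243 and 533 in astrocyte sEVs and 179378, 141900.4 and 120999.6 in microglia sEVs (log2 difference -8.79 ± 0.35, adjusted p = 0.000198). Astrocyte sEVs held low but nonzero counts of Ifit3 and Rsad2 in every library, so these 2 differences do not rest on zeros. Cmpk2, the neighbour of Rsad2 in the genome and a nucleotide kinase, measured 298, 786 and 895 in astrocyte sEVs and 260167, 244309.7 and 364900.5 in microglia sEVs (log2 difference -8.9 ± 0.45, adjusted p = 0.000198). The guanylate-binding protein Gbp2 measured 1057, 1744 and 748 in astrocyte sEVs and 217389, 240931 and 250234 in microglia sEVs (log2 difference -7.73 ± 0.31, adjusted p = 0.000198). Neither gene was at 0 in any library. Among the signalling genes, Stat2, a subunit of the factor that binds the ISRE, measured 61.6, 156 and 92 in astrocyte sEVs and 1759, 3919 and 3541 in microglia sEVs (log2 difference -4.9 ± 0.64, adjusted p = 0.00169). Its log2 difference was smaller than those of Ifit3, Rsad2 and Cmpk2. Irf7, the transcription factor that drives interferon production, measured 0, 120.3 and 5.25 in astrocyte sEVs and 19949, 23685 and 26905 in microglia sEVs (log2 difference -11.32 ± 1.75, adjusted p = 0.0035). Ifih1, a sensor of viral RNA, measured 338, 0 and 0 in astrocyte sEVs and 143792, 114463 and 174932 in microglia sEVs (log2 difference -14.32 ± 2.35, adjusted p = 0.00452). Zbp1, a sensor of nucleic acid of the Z form, measured 19120.3, 23003 and 18190.05 in microglia sEVs and 0 in each astrocyte sEV library (adjusted p = 0.000198). A brake of the response was high in the same libraries. Usp18, which removes Isg15 from proteins, measured 0, 0 and 179 in astrocyte sEVs and 64276, 57412 and 63009 in microglia sEVs (log2 difference -13.41 ± 2.12, adjusted p = 0.00384).

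Cytokine and chemokine messages followed. Of 32 tested (36 in the table), 26 were called higher in microglia sEVs, with a median of -11.56, and -1.43 over the 4 members above 0 in all 6 libraries. Il1a measured 0, 27.2 and 104 in astrocyte sEVs and 472834, 355898 and 360964 in microglia sEVs (log2 difference -14.74 ± 1.68, adjusted p = 0.000924). This cytokine, which warns of tissue damage, was near 0 in astrocyte sEVs. Tnf, tumour necrosis factor, measured 0, 11.5 and 187 in astrocyte sEVs and 62795, 48691 and 47286 in microglia sEVs (log2 difference -11.95 ± 1.85, adjusted p = 0.00354). Il6 measured 0, 3.1 and 1.24 in astrocyte sEVs and 19878, 18365 and 15433 in microglia sEVs (log2 difference -13.05 ± 0.87, adjusted p = 0.000198). Il1a, Tnf and Il6 were all listed at 0 in astrocyte sEV replicate 1. Il12b, a subunit of interleukins 12 and 23, measured 0, 390.2 and 635 in astrocyte sEVs and 247919.5, 312824 and 300402 in microglia sEVs (log2 difference -12.15 ± 2.49, adjusted p = 0.0111). Il1rn, the antagonist of the interleukin 1 receptor, measured 0, 6.93 and 5.65 in astrocyte sEVs and 21387, 41757 and 28953 in microglia sEVs (log2 difference -12.95 ± 1.01, adjusted p = 0.000214). The cytokines Il1a and Il1b and the antagonist of their receptor were therefore high in the same libraries. Among chemokines, which draw in leukocytes, Cxcl10 measured 0, 812 and 203 in astrocyte sEVs and 251834, 212939 and 212087 in microglia sEVs (log2 difference -12 ± 2.45, adjusted p = 0.011). Ccl7 measured 0, 596 and 638 in astrocyte sEVs and 382065, 450832 and 355129 in microglia sEVs (log2 difference -12.41 ± 2.57, adjusted p = 0.0116). Ccl9 measured 0, 0 and 32.5 in astrocyte sEVs and 80741, 90349 and 87219 in microglia sEVs (log2 difference -14.7 ± 1.48, adjusted p = 0.00053). All 3 were at 0 in astrocyte sEV replicate 1, and Ccl9 in replicate 2 as well. Cxcl1, a chemokine for neutrophils, was at 0 in astrocyte sEVs and measured 19733, 11594 and 9443 in microglia sEVs (adjusted p = 0.000198). Only 2 members were called higher in astrocyte sEVs, Lif and Tgfb2, and without astrocyte sEV replicate 1, 2 or 3 or microglia sEV replicate 3, and after quantile normalization, only 1 was. Lif measured 386, 68.8 and 83.9 in astrocyte sEVs and 0 in each microglia sEV library (adjusted p = 0.000749), a call lost after quantile normalization (log2 difference 1.93, adjusted p = 0.305). Its receptor Lifr is described above.

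Many of these genes are targets of NF-kB, the transcription factor of inflammatory signalling. Of 25 NF-kB response genes tested (26 in the table), 23 were called higher in microglia sEVs and 0 higher in astrocyte sEVs, with a median of -7.69, and -4.19 over the 11 above 0 in all 6. Nfkbia, the inhibitor that holds NF-kB in the cytoplasm, measured 609, 2349 and 1133 in astrocyte sEVs and 92354, 93426 and 97987 in microglia sEVs (log2 difference -6.33 ± 0.48, adjusted p = 0.000205). The inhibitor is itself a target of the factor. The subunit precursor Nfkb1 measured 708, 187 and 295 in astrocyte sEVs and 11629, 17035 and 15559 in microglia sEVs (log2 difference -5.42 ± 0.54, adjusted p = 0.000506). Sod2, the mitochondrial superoxide dismutase, measured 5510.01, 4817 and 7295 in astrocyte sEVs and 186444, 190914 and 177868 in microglia sEVs (log2 difference -5 ± 0.17, adjusted p = 0.000198). Nfkbia, Nfkb1 and Sod2 were above 0 in every library, and the groups did not overlap in any of them. Tnfaip3, an enzyme that edits ubiquitin chains and ends the response, measured 0, 16.6 and 0 in astrocyte sEVs and 25874, 18476 and 27520.4 in microglia sEVs (log2 difference -13.15 ± 1.33, adjusted p = 0.000535). Icam1, an adhesion protein, measured 0, 128 and 15.3 in astrocyte sEVs and 37825, 21355 and 25699 in microglia sEVs (log2 difference -11.07 ± 1.75, adjusted p = 0.00389). Ptgs2, the inducible cyclooxygenase, measured 0, 0 and 168 in astrocyte sEVs and 19171, 18137 and 18081 in microglia sEVs (log2 difference -11.71 ± 2.13, adjusted p = 0.00684). Tnfaip3, Icam1 and Ptgs2 were all listed at 0 in astrocyte sEV replicate 1. The promoters of Cxcl1 and Il6 are shown as 2 of the cytokine promoters with the kB motif in capitals, searched as GGGA, any 2 bases and TTCC on both strands, again from RefSeq on GRCm38.p6, at chr5:90890995-90891294 on the plus strand for Cxcl1 and chr5:30012864-30013163 on the plus strand for Il6.
Cxcl1: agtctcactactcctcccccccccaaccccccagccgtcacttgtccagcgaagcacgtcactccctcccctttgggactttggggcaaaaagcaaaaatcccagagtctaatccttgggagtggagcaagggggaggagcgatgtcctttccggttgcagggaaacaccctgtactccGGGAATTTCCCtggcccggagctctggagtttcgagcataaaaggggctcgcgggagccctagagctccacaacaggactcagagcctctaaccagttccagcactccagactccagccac
Il6: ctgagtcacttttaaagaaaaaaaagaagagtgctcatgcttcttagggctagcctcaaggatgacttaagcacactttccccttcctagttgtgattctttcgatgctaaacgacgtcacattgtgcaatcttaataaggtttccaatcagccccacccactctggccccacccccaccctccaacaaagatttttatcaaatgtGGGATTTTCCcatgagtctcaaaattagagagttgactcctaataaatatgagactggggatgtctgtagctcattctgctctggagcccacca
The motif was in 5 of 26 cytokine and chemokine genes with a promoter in the table (19.2%). It was in 2 of 20 NF-kB response genes (10%) and 5 of 50 interferon genes (10%). Of markers, 1 of 28 for microglia (3.57%) and 0 of 30 for astrocytes held it, and 441 of all 27025 genes did (1.63%). The 5 cytokine genes were Csf1, Il6, Cxcl1, Cxcl2 and Cxcl10.

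Receptors of innate immunity were next. Of 20 Toll-like receptors and adaptors tested (24 in the table), 13 were called higher in microglia sEVs, with a median of -8.06. The median turned sign among the 6 members above 0 in all 6 libraries, at 0.53. Tlr2, the receptor of bacterial lipopeptides, was listed at 0 in all astrocyte sEV libraries and measured 9857, 3085 and 3320.5 in microglia sEVs (adjusted p = 0.000205). Tlr7, a receptor of single-stranded RNA, measured 7468, 3492 and 1346 against 0 (adjusted p = 0.000271). Cd14, the co-receptor of lipopolysaccharide, was above 0 everywhere, at 558, 204 and 738 in astrocyte sEVs and 140175, 87209.7 and 119080.1 in microglia sEVs (log2 difference -8.01 ± 0.51, adjusted p = 0.000198). Tlr2 and Tlr7 were tested through their counts in microglia sEVs alone, and Cd14 was not. The kinase Irak1 was the 1 member higher in astrocyte sEVs, at 3124, 4553 and 2427 in astrocyte sEVs and 1071, 1270.4 and 960.05 in microglia sEVs (log2 difference 1.57 ± 0.35, adjusted p = 0.0145). Of 22 Fc and phagocytic receptors tested (28 in the table), 20 were called higher in microglia sEVs and 0 higher in astrocyte sEVs, with a median of -11.9. Of the 22, 10 were at 0 in all astrocyte sEV libraries, so they were tested through microglia sEVs alone. Only 1 member was above 0 in all 6 libraries, at a log2 difference of -1.6. The common Fc receptor chain Fcer1g measured 0, 277 and 242 in astrocyte sEVs and 105877, 100742 and 91181 in microglia sEVs (log2 difference -11.25 ± 2.23, adjusted p = 0.00978). Fcgr3, a receptor of immunoglobulin G, measured 0, 313 and 71.1 in astrocyte sEVs and 69263, 62909 and 54426 in microglia sEVs (log2 difference -11.1 ± 2.09, adjusted p = 0.00783). Both were at 0 in astrocyte sEV replicate 1 and low in replicates 2 and 3.

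Complement and antigen presentation leaned the same way. Of 13 complement genes tested (20 in the table), 10 were called higher in microglia sEVs. Of the 13, 2 were at 0 in all astrocyte sEV libraries, and 1 was above 0 in all 6 libraries, at a log2 difference of -6.66. C1qb, a chain of the complex that starts the classical pathway, measured 0, 181 and 253 in astrocyte sEVs and 78863, 64802 and 77269.5 in microglia sEVs (log2 difference -11 ± 2.16, adjusted p = 0.00941). C1qc measured 0, 95.9 and 13.6 in astrocyte sEVs and 55411, 37265 and 37675 in microglia sEVs (log2 difference -11.89 ± 1.65, adjusted p = 0.0022). These chains were listed at 0 in astrocyte sEV replicate 1 and low in the other 2. C3ar1, a receptor of a complement peptide, measured 0, 0 and 229 in astrocyte sEVs and 56703, 42634 and 57464 in microglia sEVs (log2 difference -13.04 ± 2.22, adjusted p = 0.00524). C5ar1, the receptor of another, measured 0, 6.87 and 136 in astrocyte sEVs and 52835, 32949 and 58054 in microglia sEVs (log2 difference -12.15 ± 1.77, adjusted p = 0.00271). Both receptors were high in every microglia sEV library. Of 21 genes of MHC class I presentation (24 in the table), 18 were called higher in microglia sEVs, with a median of -5.59, and -3.78 over the 13 above 0 in all 6. B2m, the light chain of class I molecules, measured 1365, 1435 and 908 in astrocyte sEVs and 77556, 57156 and 45309.8 in microglia sEVs (log2 difference -5.59 ± 0.28, adjusted p = 0.000198). The heavy chain H2-D1 measured 308, 245 and 480.5 in astrocyte sEVs and 72625, 32459.9 and 47167 in microglia sEVs (log2 difference -7.18 ± 0.41, adjusted p = 0.000198). Class I heavy chains share much of their sequence, so the division of counts among H2 genes is uncertain. Tapbp, which loads peptide onto them, measured 864, 565 and 463 in astrocyte sEVs and 10334, 9287 and 11269 in microglia sEVs (log2 difference -4.07 ± 0.32, adjusted p = 0.000213). Cd74, the invariant chain of class II, measured 0, 0 and 10.3 in astrocyte sEVs and 5802, 5877 and 4878 in microglia sEVs (log2 difference -11.26 ± 1.26, adjusted p = 0.000844); it was 1 of 2 class II genes called, of 3 tested, and 1 without astrocyte sEV replicate 1.

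Genes of protein degradation were counted next. Of 47 proteasome subunits tested (49 in the table), 23 were called higher in microglia sEVs and 0 higher in astrocyte sEVs, with a median of -0.97; 12 were called after quantile normalization, 13 with equal totals, 12 with equal totals without Ftl1 and 13 without a variance trend. Without microglia sEV replicate 1, and with equal totals without Ftl1, 1 subunit was called higher in astrocyte sEVs. Among those higher in microglia sEVs were the subunits of the immunoproteasome, which interferon installs to cut peptides for class I molecules. Psmb8 measured 0, 0 and 139.6 in astrocyte sEVs and 76089, 75199.9 and 63483 in microglia sEVs (log2 difference -13.74 ± 2.02, adjusted p = 0.00284). Psmb9 measured 1.86, 62.6 and 26 in astrocyte sEVs and 6057, 7924 and 6908 in microglia sEVs (log2 difference -8.67 ± 1.25, adjusted p = 0.0026). Both were near 0 in astrocyte sEVs. The activator subunit Psme1 measured 822, 571 and 1081 in astrocyte sEVs and 9583, 13081 and 10591 in microglia sEVs (log2 difference -3.78 ± 0.32, adjusted p = 0.000265). Its partner Psme2 measured 5342, 2939 and 4607 in astrocyte sEVs and 84106, 102584 and 85251 in microglia sEVs (log2 difference -4.44 ± 0.25, adjusted p = 0.000198). The constitutive subunit Psmb6, which Psmb9 replaces, measured 28088, 18895 and 23631 in astrocyte sEVs and 69605, 94539 and 88019 in microglia sEVs (log2 difference -1.84 ± 0.19, adjusted p = 0.000571). It too was higher in microglia sEVs, with a smaller log2 difference. Of 37 lysosome genes (39 in the table), 24 were called higher in microglia sEVs, with a median of -3.32, and -2.7 over the 24 above 0 in all 6. Proteases of the lysosome were among them. The protease Ctsb measured 2906, 4704 and 2886 in astrocyte sEVs and 249324, 109812 and 165987 in microglia sEVs (log2 difference -5.6 ± 0.35, adjusted p = 0.000198). The protease Ctsd measured 2851, 5995 and 2651 in astrocyte sEVs and 62431, 33342 and 48216 in microglia sEVs (log2 difference -3.7 ± 0.4, adjusted p = 0.000693). Ctss, which cuts the invariant chain, measured 0, 216 and 44.2 in astrocyte sEVs and 58155, 39345 and 39899 in microglia sEVs (log2 difference -11.04 ± 1.95, adjusted p = 0.00604). Of these 3 proteases, Ctss alone was at 0 in an astrocyte sEV library. The 1 lysosome gene called higher in astrocyte sEVs was Npc1, the cholesterol exporter of lysosomes, and 12 were not called. Npc1 measured 711, 1196 and 391 in astrocyte sEVs and 0 in each microglia sEV library (adjusted p = 0.000217). It was tested through astrocyte sEVs alone, so its call is no support for a difference. A second lysosome gene was called higher in astrocyte sEVs without astrocyte sEV replicate 3, without microglia sEV replicate 2 and with equal totals. Of 17 subunits of the V-ATPase, the proton pump of lysosomes, 14 were called higher in microglia sEVs, with a median of -1.71; Atp6v1a measured 10554, 8806 and 6387 in astrocyte sEVs and 35361, 25306 and 23342 in microglia sEVs (log2 difference -1.71 ± 0.25, adjusted p = 0.0029).

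Cytoskeletal genes were listed by filament. Of 28 actin and leukocyte cytoskeleton genes, 22 were called higher in microglia sEVs, with a median of -2.25, against 2 higher in astrocyte sEVs (17 and 3 after quantile normalization). Actb, cytoplasmic actin, measured 65118, 37269 and 54495 in astrocyte sEVs and 316308, 448694 and 339610.4 in microglia sEVs (log2 difference -2.84 ± 0.24, adjusted p = 0.000264). Pfn1, which feeds actin monomers to growing filaments, measured 17928, 13572 and 19448 in astrocyte sEVs and 108404, 112007 and 121150.2 in microglia sEVs (log2 difference -2.76 ± 0.15, adjusted p = 0.000198). Capg, a protein that caps filaments in macrophages, measured 254, 352 and 690.5 in astrocyte sEVs and 125622, 141972 and 149360.1 in microglia sEVs (log2 difference -8.45 ± 0.38, adjusted p = 0.000198). The Arp2/3 complex, which branches actin filaments, was divided between its paralogs. Arpc1b, the form prominent in blood cells, measured 22653, 16165 and 12318 in astrocyte sEVs and 130246, 113422 and 167687 in microglia sEVs (log2 difference -3.03 ± 0.26, adjusted p = 0.000279). Arpc1a measured 32392, 39309.9 and 27869 in astrocyte sEVs and 6517, 3797 and 5877 in microglia sEVs (log2 difference 2.64 ± 0.25, adjusted p = 0.000442). Neither paralog overlapped between the groups. Dstn, which severs filaments, was the other member higher in astrocyte sEVs, at 16388, 16051 and 14974 in astrocyte sEVs and 5946, 6306 and 4697 in microglia sEVs (log2 difference 1.49 ± 0.17, adjusted p = 0.000821). Among 19 tubulin and intermediate filament genes tested (20 in the table), 9 were called higher in astrocyte sEVs (5 without astrocyte sEV replicate 3) and 2 higher in microglia sEVs, with a median of 3.31, and 1.12 over the 14 above 0 in all 6. Tubulins and a neural filament are given here. Tuba1a, the tubulin of growing neural cells, measured 56813, 48102 and 52126 in astrocyte sEVs and 1778, 3693 and 6410.5 in microglia sEVs (log2 difference 3.91 ± 0.46, adjusted p = 0.00107). Tubb2b, a beta-tubulin, measured 13836, 15477 and 17218 in astrocyte sEVs and 221, 809 and 1229 in microglia sEVs (log2 difference 4.67 ± 0.65, adjusted p = 0.00226). Nes, the filament protein nestin, measured 3649, 4411 and 4937 in astrocyte sEVs and 406, 401 and 497 in microglia sEVs (log2 difference 3.31 ± 0.32, adjusted p = 0.000451). All 3 were lower in microglia sEVs without being at 0 there.

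Genes of astrocyte functions leaned toward astrocyte sEVs. Of 15 genes that handle glutamate, potassium and water (18 in the table), 11 were called higher in astrocyte sEVs and 0 higher in microglia sEVs, with a median of 7.21; the count was 6 without astrocyte sEV replicate 1, 2 or 3. Among the 5 members above 0 in all 6 libraries the median was 1.84. Kcnj10, the potassium channel of astrocyte membranes, measured 4704, 6525 and 4500.04 in astrocyte sEVs and 0, 83.4 and 21.8 in microglia sEVs (log2 difference 8.7 ± 1.71, adjusted p = 0.00933). Its partner Kcnj16 measured 1149, 792 and 234 against 0 (adjusted p = 0.000349). The GABA transporter Slc6a11 measured 162, 367 and 293 against 0 (adjusted p = 0.000198). In all 3 genes the microglia sEV libraries were at 0 or low. Fabp7, a fatty acid binding protein of radial glia and astrocytes, measured 113905, 61891 and 135174 in astrocyte sEVs and 228, 629.9 and 654 in microglia sEVs (log2 difference 7.75 ± 0.52, adjusted p = 0.000198). Of 20 secreted astrocyte factors (25 in the table), 9 were called higher in astrocyte sEVs (5 without astrocyte sEV replicate 1, 2 or 3) and 2 higher in microglia sEVs (1 without microglia sEV replicate 1, 2 or 3). Sparcl1, a matrix protein that promotes synapses, measured 4117, 6203 and 3271 in astrocyte sEVs and 379, 559 and 1221 in microglia sEVs (log2 difference 2.78 ± 0.54, adjusted p = 0.00881). Apoe, the lipid carrier that both cell types make, was higher in microglia sEVs, at 42670.3, 80051 and 41849 in astrocyte sEVs and 343591, 165661 and 193287 in microglia sEVs (log2 difference -2.09 ± 0.37, adjusted p = 0.00623).

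Stress and metal-binding genes did not move as a block. Of 26 antioxidant genes (27 in the table), 9 were called higher in astrocyte sEVs and 6 higher in microglia sEVs (3 without astrocyte sEV replicate 1 and 3 with equal totals), with a median of 0.78. Over all genes tested the shares called were 25% and 14.4%, and the median was 1.26. The glutathione transferase Gstm1 measured 58259, 54885 and 66699.9 in astrocyte sEVs and 9426, 11049 and 7287 in microglia sEVs (log2 difference 2.71 ± 0.18, adjusted p = 0.000198). Its relative Gstm5 measured 29796, 30153 and 27141 in astrocyte sEVs and 2498, 3157 and 2985 in microglia sEVs (log2 difference 3.34 ± 0.15, adjusted p = 0.000198). Both transferases were severalfold higher in astrocyte sEVs. The peroxiredoxins split: Prdx6 is given above, and Prdx1, which removes peroxide with thioredoxin, measured 30672, 18645 and 31907 in astrocyte sEVs and 245486, 207982 and 204542 in microglia sEVs (log2 difference -3.05 ± 0.23, adjusted p = 0.000198). Hmox1, the inducible heme oxygenase, was also higher in microglia sEVs, at 635, 787 and 1361 in astrocyte sEVs and 8819, 9263 and 9167 in microglia sEVs (log2 difference -3.37 ± 0.34, adjusted p = 0.000552). The metallothioneins, small proteins that bind zinc and copper, were all 3 higher in astrocyte sEVs. Mt1 measured 34728, 28608 and 49616 in astrocyte sEVs and 13315, 12791 and 10408 in microglia sEVs (log2 difference 1.6 ± 0.23, adjusted p = 0.00262). Mt2 measured 8262, 8888 and 11541 in astrocyte sEVs and 1427, 1220.1 and 1411 in microglia sEVs (log2 difference 2.81 ± 0.23, adjusted p = 0.00024). Mt3, the brain form, measured 6180.1, 4159 and 7287 in astrocyte sEVs and 0, 55.2 and 18.7 in microglia sEVs (log2 difference 9.11 ± 1.6, adjusted p = 0.00592). Mt3 was at or near 0 in microglia sEVs, and Mt1 and Mt2 were not. Lactate dehydrogenase also split by isoform. Ldhb measured 52394, 37462 and 65521 in astrocyte sEVs and 4312, 3833 and 5564 in microglia sEVs (log2 difference 3.48 ± 0.26, adjusted p = 0.000198). Ldha measured 6406, 7641 and 7926 in astrocyte sEVs and 14072, 20128 and 18529 in microglia sEVs (log2 difference -1.25 ± 0.19, adjusted p = 0.00317). The first was higher in astrocyte sEVs and the second in microglia sEVs. Trf, the iron carrier transferrin, measured 507, 895 and 624 in astrocyte sEVs and 37763, 30949 and 49575 in microglia sEVs (log2 difference -5.88 ± 0.3, adjusted p = 0.000198). The iron transporter of phagosomes Slc11a1 measured 0, 11.8 and 20.7 in astrocyte sEVs and 2139, 2176 and 4981 in microglia sEVs (log2 difference -8.77 ± 1.42, adjusted p = 0.00421). Of 18 iron genes tested (21 in the table), 7 were called higher in microglia sEVs and 2 higher in astrocyte sEVs, Ftl1 among them; the counts were 9 and 0 after quantile normalization, and 1 was higher in astrocyte sEVs without a variance trend.

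Messages of other brain cells were sought as well. Of 15 oligodendrocyte lineage markers tested (20 in the table), 14 were called higher in astrocyte sEVs and 0 higher in microglia sEVs, with a median of 8.75. Of all genes tested, 25% were called higher in astrocyte sEVs. But 9 of the 15 were at 0 in all microglia sEV libraries, so they were tested through astrocyte sEVs alone. Over the 3 members above 0 in all 6 libraries the median was also 8.75. The summed markers were 234166, 185297 and 113035 in astrocyte sEVs and 4083, 2539.97 and 4189 in microglia sEVs. Mbp, a structural protein of myelin, measured 105195, 91669.7 and 53119 in astrocyte sEVs and 28.5, 831 and 263 in microglia sEVs (log2 difference 8.75 ± 1.21, adjusted p = 0.0022). Among the astrocyte sEV libraries, replicate 1 was highest and replicate 3 lowest. Gpr17, a receptor of committed precursors, measured 2085, 4019 and 2271 against 0 (adjusted p = 0.000198). Olig2, the transcription factor of the lineage, measured 2761, 3387 and 2338 against 0 (adjusted p = 0.000198). The astrocyte cell libraries held these messages too: Mbp measured 185722, 95349 and 101052 in astrocytes and 283, 213 and 173 in microglia. The part of oligodendrocyte-lineage cells in the differences between the sEV groups was not tested. Of 21 neuron markers (30 in the table), 6 were called higher in astrocyte sEVs (25% of all genes tested were called that way) and 1 higher in microglia sEVs, which was not called when any 1 library was left out, with equal totals, with no filter or without a variance trend. Their summed counts were 27947, 42717 and 24423 in astrocyte sEVs and 3288, 6016 and 12193 in microglia sEVs. Dcx, a microtubule protein of young neurons, measured 3863, 2576 and 918 against 0 (adjusted p = 0.000251). Markers of fibroblasts, endothelium, mural cells, other immune cells and red cells passed the filter in 5 of 20, 2 of 12, 5 of 12, 3 of 18 and 0 of 10 cases, and no list among them summed to more than 5904 in any of the 6 libraries.

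Genes of translation and respiration were near balance. Over all genes tested, 25% were called higher in astrocyte sEVs and 14.4% higher in microglia sEVs, with a median of 1.26. Of 83 cytosolic ribosomal protein genes tested (89 in the table), 16 were called higher in astrocyte sEVs and 13 higher in microglia sEVs, with a median of -0.09. That balance depended on the scaling: after quantile normalization the median was 0.18 with 30 and 4 called, and with equal totals 0.2 with 19 and 4; without a variance trend 6 and 3 were called. Counts of ribosomal protein genes can be split with their many pseudogenes and are uncertain in that respect. Rps2 measured 99952, 99714 and 103658 in astrocyte sEVs and 27027, 23595 and 24434 in microglia sEVs (log2 difference 2.02 ± 0.08, adjusted p = 0.000198). Rpl9 measured 41261, 44274 and 46104 in astrocyte sEVs and 14117, 13943 and 12412 in microglia sEVs (log2 difference 1.7 ± 0.1, adjusted p = 0.000198). In contrast Rpl35 measured 14199, 11158 and 12437 in astrocyte sEVs and 30295, 35089.9 and 34999 in microglia sEVs (log2 difference -1.41 ± 0.14, adjusted p = 0.000427). Single ribosomal proteins of one particle thus differed in opposite directions, each with little spread among libraries. Among 37 translation factors tested (38 in the table), 9 were called higher in astrocyte sEVs (15 with equal totals without Ftl1 and 5 without a variance trend) and 11 higher in microglia sEVs. The elongation factor Eef2 measured 57611, 76044 and 85126 in astrocyte sEVs and 21469, 27231 and 21890.1 in microglia sEVs (log2 difference 1.62 ± 0.18, adjusted p = 0.000811). The initiation factor Eif4b measured 20861, 20569 and 21869 in astrocyte sEVs and 2104, 5011 and 2842 in microglia sEVs (log2 difference 2.76 ± 0.33, adjusted p = 0.00117). Others went the opposite way. The helicase Eif4a1 measured 21151, 18279.6 and 18157 in astrocyte sEVs and 70804, 62969.5 and 77609 in microglia sEVs (log2 difference -1.87 ± 0.12, adjusted p = 0.000198). Eif6, which keeps ribosomal subunits apart, measured 4568, 4886 and 6114 in astrocyte sEVs and 22395, 29948 and 31014 in microglia sEVs (log2 difference -2.42 ± 0.2, adjusted p = 0.000238). Of 85 nuclear genes of oxidative phosphorylation (93 in the table), 10 were higher in astrocyte sEVs and 6 higher in microglia sEVs, with a median of 0.03; with equal totals without Ftl1 the counts were 22 and 3, and without a variance trend 5 and 3. Atp5a1, a catalytic-core subunit of the ATP synthase, measured 31976, 34686 and 45463 in astrocyte sEVs and 13769, 15997 and 16467 in microglia sEVs (log2 difference 1.27 ± 0.17, adjusted p = 0.00174). Cycs, cytochrome c, measured 20207, 11846 and 15398 in astrocyte sEVs and 55388, 69334 and 59904 in microglia sEVs (log2 difference -1.99 ± 0.21, adjusted p = 0.000727).

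Messages for proteins known from sEVs themselves were not evenly shared either. Of 30 genes for sEV marker and biogenesis proteins tested (35 in the table), 14 were called higher in microglia sEVs and 0 higher in astrocyte sEVs, with a median of -1.4; without microglia sEV replicate 1, 2 were called higher in astrocyte sEVs, and 1 without microglia sEV replicate 3 or after quantile normalization. The tetraspanin Cd63 measured 6154, 8839.97 and 5470.2 in astrocyte sEVs and 52868, 38176 and 39876 in microglia sEVs (log2 difference -2.69 ± 0.23, adjusted p = 0.000287). The other tetraspanins used as sEV markers did not pass: Cd9 measured 3326, 4954 and 1797 in astrocyte sEVs and 9327, 5476 and 5396 in microglia sEVs (adjusted p = 0.107), and Cd81 17567, 29585 and 16139 in astrocyte sEVs and 22096, 12194 and 14976 in microglia sEVs (adjusted p = 0.413). Cd81 overlapped between the groups, and Cd9 did not. Sdcbp, the adaptor syntenin, measured 18156, 16464 and 24051 in astrocyte sEVs and 157656, 157701 and 173599 in microglia sEVs (log2 difference -3.08 ± 0.15, adjusted p = 0.000198). Pdcd6ip, the accessory protein ALIX, measured 791, 984 and 1748 in astrocyte sEVs and 7548, 5966 and 6156 in microglia sEVs (log2 difference -2.56 ± 0.36, adjusted p = 0.00247). Syntenin, ALIX and the syndecan Sdc4, which form one pathway of vesicle budding, were all higher as messages in microglia sEVs. The annexin Anxa2 measured 2730.4, 3080.1 and 4623 in astrocyte sEVs and 32136, 35716 and 45463 in microglia sEVs (log2 difference -3.46 ± 0.25, adjusted p = 0.000198). The annexin Anxa5 measured 12779.9, 7320.4 and 10081 in astrocyte sEVs and 108529, 116642 and 115899.8 in microglia sEVs (log2 difference -3.53 ± 0.21, adjusted p = 0.000198). These values are of messenger RNA and give no level of the proteins.

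Some RNAs that stay in the nucleus were present. Malat1, a noncoding RNA of nuclear speckles, measured 91854, 47325 and 28401 in astrocyte sEVs and 2859, 2740.1 and 1660.1 in microglia sEVs (log2 difference 4.4 ± 0.47, adjusted p = 0.000702). Xist, the noncoding RNA that silences an X chromosome, was listed at 0 in all 3 microglia sEV libraries and measured 976, 230.4 and 607 in astrocyte sEVs (adjusted p = 0.000288). It was present in both kinds of cell. Astrocytes measured 1831, 2262 and 583 and microglia 1954, 1201 and 1048. Neat1, the RNA of paraspeckles, overlapped between the groups at 126, 615 and 120.5 in astrocyte sEVs and 0, 861 and 943 in microglia sEVs (adjusted p = 0.756), and its sign turned without microglia sEV replicate 1. Of 10 nuclear long noncoding RNAs tested (11 in the table), 3 were called higher in astrocyte sEVs and 0 higher in microglia sEVs. Over all genes tested, 25% and 14.4% were called in these directions, so the 3 lie near that share. The 3 became 5 without microglia sEV replicate 2 or with all 9 sEV libraries in the fit. Immediate early genes switch on within minutes of a stimulus. Of 19 tested (24 in the table), 4 were called higher in astrocyte sEVs and 5 higher in microglia sEVs, beside the same 25% and 14.4% of all genes tested. That split became 1 and 8 after quantile normalization. Atf3, a stress-induced transcription factor, measured 91.3, 424 and 759 in astrocyte sEVs and 43036, 43153 and 37677 in microglia sEVs (log2 difference -7.05 ± 0.78, adjusted p = 0.000794). The transcription factor Klf6 measured 2740.3, 10333 and 3630.4 in astrocyte sEVs and 60092, 73439.6 and 72993 in microglia sEVs (log2 difference -3.87 ± 0.5, adjusted p = 0.00159). Btg2, which slows proliferation, measured 8989, 15514 and 12342 in astrocyte sEVs and 4222, 3728 and 5130.4 in microglia sEVs (log2 difference 1.47 ± 0.26, adjusted p = 0.00595). Atf3 and Klf6 were higher in microglia sEVs, and Btg2 was higher in astrocyte sEVs.

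**Figure D3:**
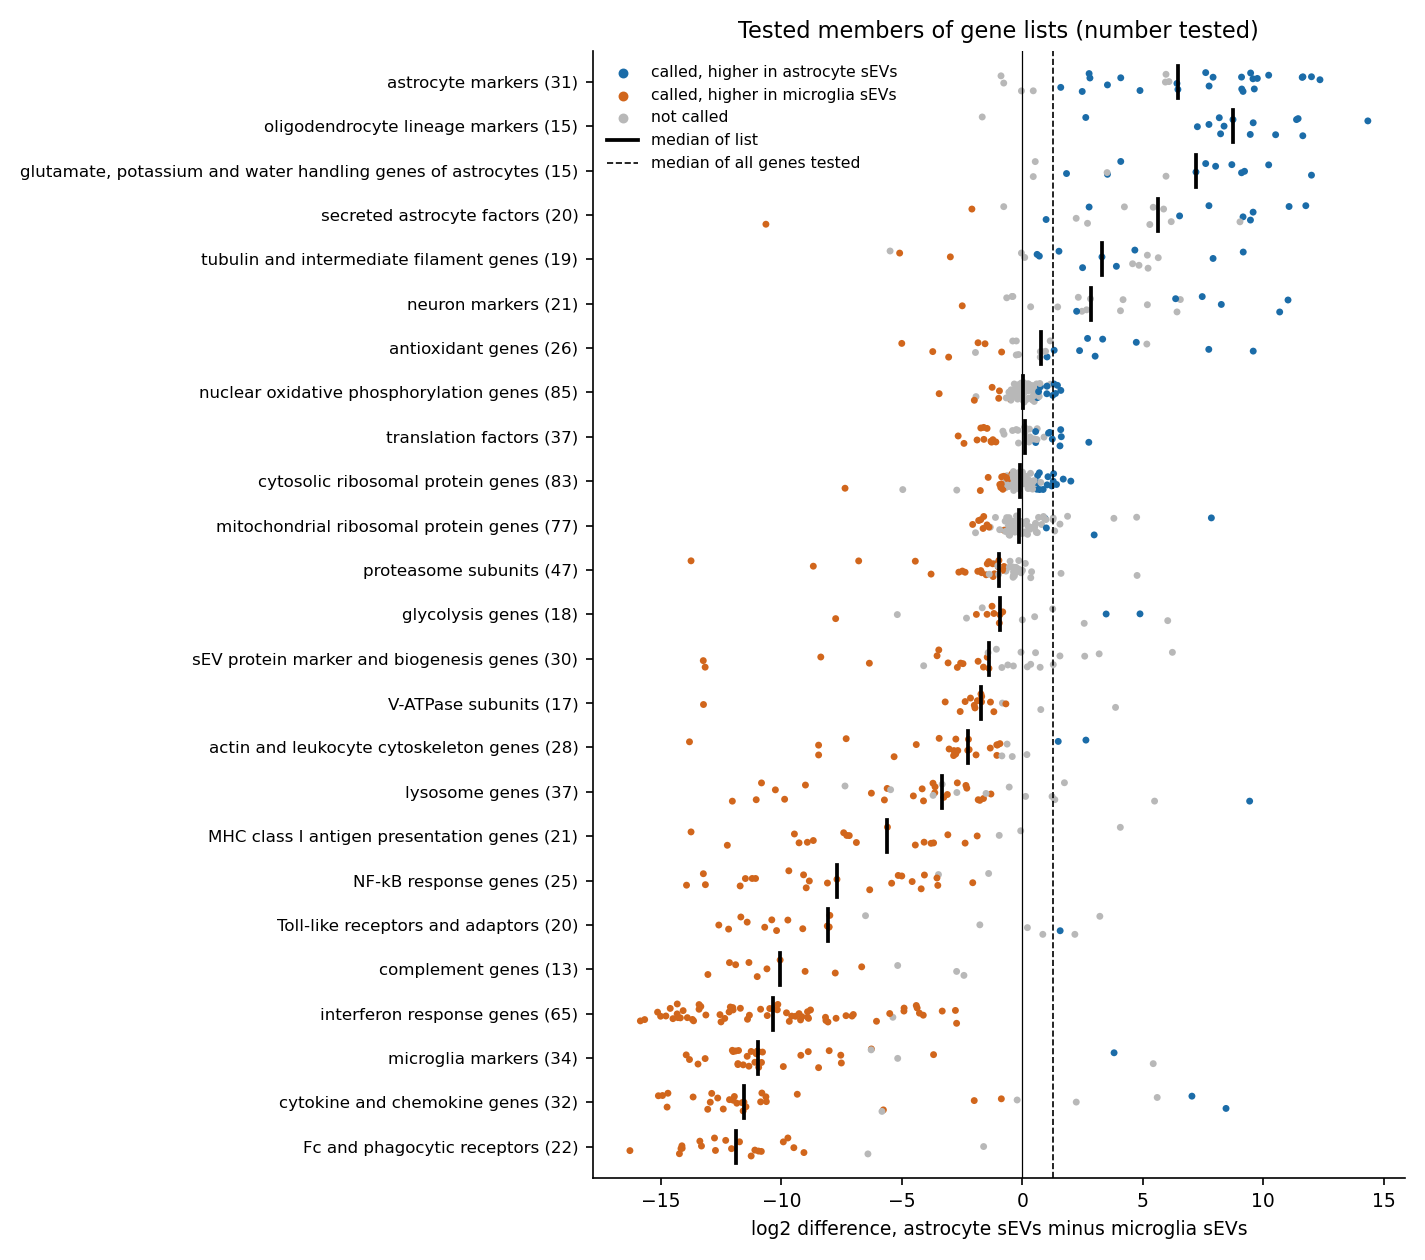
Log2 difference, astrocyte sEVs minus microglia sEVs, of each tested member of the gene lists described, 1 row per list; each point is 1 gene, coloured by its call, the bar marks the list's median and the dashed line the median of all genes tested, 1.26. Interferon, cytokine, Fc receptor and microglia lists lie far on the microglia side, astrocyte and oligodendrocyte lists on the astrocyte side, and ribosomal protein and oxidative phosphorylation genes around 0.

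The last question was whether the difference between the 2 kinds of sEV equals the difference between the cells that made them. A fit over 12 libraries, the 6 sEV libraries with 3 of astrocytes and 3 of microglia, tested for each of 16817 genes the sEV difference minus the cell difference. Of the 4824 genes called between the sEVs, 4568 (94.7%) had the same sign between the cells, 3477 were called there in the same direction, 50 in the other, and 1297 were not called, where 6878 of the 16817 genes (40.9%) were called between the cells. Across the 12238 genes, which are not replicates, the sEV and cell differences correlated at 0.838, and at 0.736 over the 6219 genes above 0 in all 12 libraries; both come from libraries scaled together. The difference of differences was called for 1970 genes (11.7%), 1286 with the sEV difference above the cell difference, that is further toward astrocytes, and 684 below; 4095 had an unadjusted p under 0.05. Without astrocyte sEV replicate 3, the number below was 1069. The split moved with the scaling: 987 were above and 1134 below after quantile normalization, and 1070 and 1090 with equal totals. With equal totals without Ftl1 the counts were 1139 and 926. Among the 1970, 481 were listed at 0 in all 6 sEV libraries, so only the cells differed. Of the 12238 genes tested between the sEVs, 1308 (10.7%) were called, 1038 above (8.48%) and 270 below (2.21%).

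**Figure D4:**
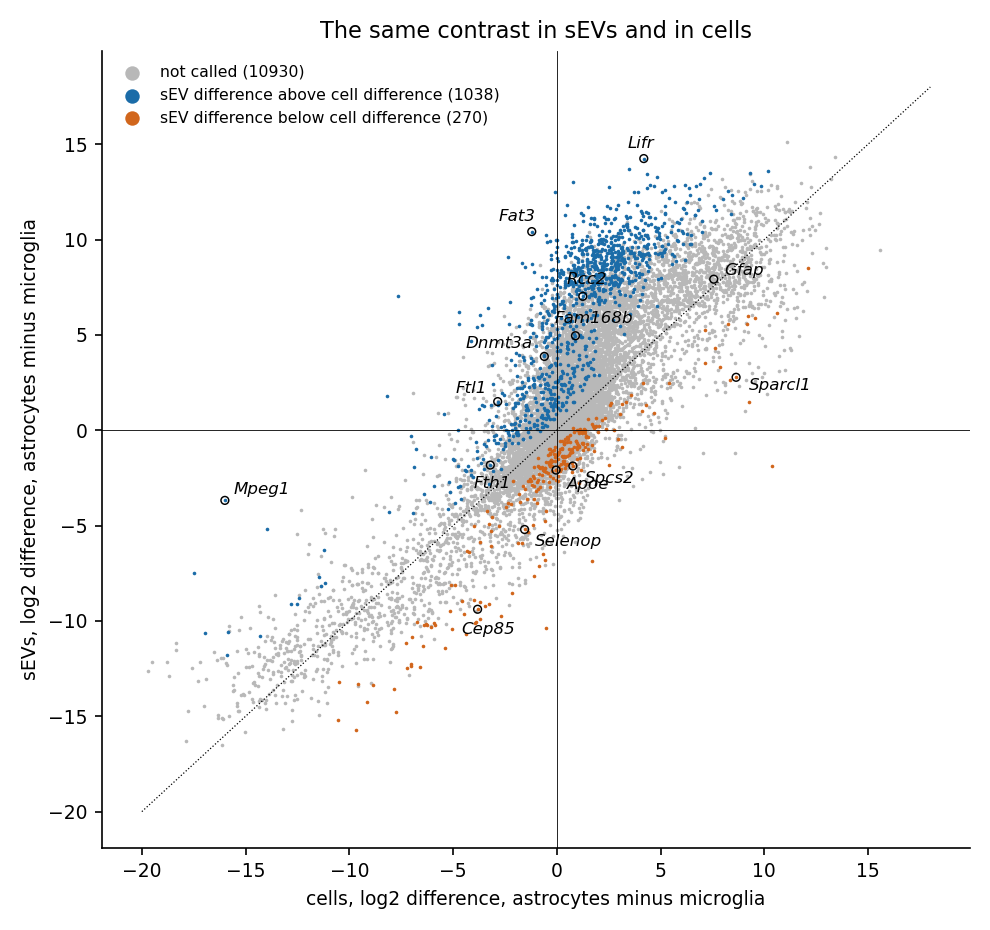
Log2 difference between astrocytes and microglia as cells (x axis) and between their sEVs (y axis), astrocyte minus microglia, for each of the 12238 genes, with genes whose sEV and cell differences differed by limma at an adjusted p of 0.05 in colour. Ftl1, Fam168b, Rcc2 and Dnmt3a lie above the dotted line of equal differences, and Cep85, Spcs2 and Selenop below it.

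Ftl1 and Cep85 were the plainest cases among abundant genes. Ftl1 was higher in astrocyte sEVs but lower in astrocytes, which measured 105832, 105662 and 151798 against 920417, 777348 and 888131 in microglia (cell log2 difference -2.85), so the differences differed by 4.35 ± 0.38 (adjusted p = 6.55e-05). Fth1 was lower in astrocytes as well, at 48029.8, 43634 and 71636 against 531855, 470489 and 472611, and its sEV difference was smaller than its cell difference, by 1.38 ± 0.26 (adjusted p = 0.00553). Ferritin light chain therefore changed order between cells and sEVs, and heavy chain did not. Cep85 measured 246, 317 and 258 in astrocytes and 4339, 3834 and 3429.6 in microglia (cell log2 difference -3.82), while its sEV difference was -9.39, and the sEV difference minus the cell difference was -5.57 ± 0.28 (adjusted p = 1.53e-05). Gm42047 measured 10735, 10121 and 11322 and 2336, 2982 and 2720.4 in the cells, and its sEV difference exceeded the cell difference by 7.14 ± 1.25 (adjusted p = 0.00344).

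Of the 8 genes with the smallest p-values in each direction and a mean of at least 50 in 1 group, B3gnt3, Mcoln3, Adam33 and Pcsk1 (above) and Epha3, Slc2a4, Mroh3, St8sia5, Ackr1 and Sorcs3 (below) were listed at 0 in all 6 sEV libraries. Those detected in sEVs are given here, with the sEV difference minus the cell difference in parentheses. Mpeg1, which encodes the pore-forming protein perforin-2 of macrophages, measured 332, 316 and 429 in astrocyte sEVs and 4524, 3947 and 5346 in microglia sEVs, a log2 difference of -3.68, against 0, 1.39 and 0 in astrocytes and 84562, 97408 and 81399.9 in microglia, so the sEVs differed by less than the cells (12.32 ± 0.59, adjusted p = 1.53e-05). A macrophage message nearly absent from astrocytes was thus present in every astrocyte sEV library. Fam168b, which encodes an inhibitor of neurite outgrowth, measured 48611, 76993 and 61678 in astrocyte sEVs and 1767, 2156 and 2027 in microglia sEVs and, in cells, 2813, 2505 and 2577 and 1519, 1373 and 1343 (4.06 ± 0.26, adjusted p = 3.69e-05). Lifr was at 0 in microglia sEVs but measured 210.3, 524 and 499 in microglia (adjusted p for the difference of differences = 3.69e-05), and the protocadherin Fat3, also at 0 in microglia sEVs, measured 822, 865 and 669 there and 901, 2085 and 1355 in astrocyte sEVs (adjusted p = 3.69e-05). Spcs2, a subunit of the signal peptidase, measured 4582, 4436 and 3603 in astrocyte sEVs and 16141, 13724 and 16419 in microglia sEVs but 36398, 39655 and 43232 in astrocytes and 20827, 24484 and 24559 in microglia (-2.65 ± 0.18, adjusted p = 3.69e-05). Its order in sEVs was the reverse of that in cells.

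A further set, chosen after the values were seen, took the genes above 0 in all 12 libraries with the smallest p-values. Dnmt3a, a DNA methyltransferase, measured 90889.9, 140695 and 82189.6 in astrocyte sEVs and 6440.3, 5805 and 8988 in microglia sEVs and 4007, 2831 and 2866 against 5352, 4493 and 4741 in the cells (4.47 ± 0.33, adjusted p = 3.88e-05). Its cells were of similar level, and its sEVs were not. The cell cycle inhibitor Cdkn1a measured 22471, 27843 and 22199 in astrocyte sEVs and 309706, 333019 and 323969 in microglia sEVs and 2427, 2194 and 3397 against 196753, 161695 and 192543 in the cells (2.38 ± 0.22, adjusted p = 7.31e-05). Rps2 measured 13884, 11539.9 and 8731 in astrocytes and 15377, 13667 and 12933 in microglia, and its sEV difference exceeded the cell difference by 2.34 ± 0.2 (adjusted p = 6.27e-05); for Rpl9 the excess was 1.93 ± 0.17 (adjusted p = 5.81e-05). These 2 were among 18 of 83 ribosomal protein genes called above, with 0 called below, where 8.48% and 2.21% of the genes tested between the sEVs were called. Nuclear genes of oxidative phosphorylation leaned the other way, with 4 of 85 called above, Atp5a1 among them, and 15 called below. Selenop, a selenium carrier, measured 2371, 3163 and 2148 in astrocyte sEVs and 112737, 92104 and 78163 in microglia sEVs and 20985, 19661 and 31458 against 66277, 70403 and 70354 in the cells (-3.65 ± 0.29, adjusted p = 4.86e-05). The chaperone Hspa8 measured 56139, 56407 and 56256 in astrocyte sEVs and 181150.1, 172950.3 and 190183 in microglia sEVs and 118735, 140264 and 119307 against 170836, 169375 and 197509 (-1.18 ± 0.1, adjusted p = 6.55e-05), the splicing factor Srsf7 differed by -1.67 ± 0.2 (adjusted p = 0.000257), and Ddost, of the enzyme that attaches sugars to proteins in the endoplasmic reticulum, by -1.92 ± 0.24 (adjusted p = 0.000389). Sparcl1 measured 112093, 90631 and 207925 in astrocytes and 462, 208 and 344 in microglia, a cell difference of 8.64 against 2.78 in sEVs (-5.86 ± 0.7, adjusted p = 0.000272). The gap between the cells was thus far wider than that between their vesicles. Rcc2, a regulator of chromosome condensation, measured 99897, 133833 and 120283 in astrocyte sEVs and 887, 1686 and 488 in microglia sEVs, but 928, 709 and 697 in astrocytes and 345, 387 and 253 in microglia (5.77 ± 0.57, adjusted p = 0.00011), and Apoe, similar in the cells at 953869.5, 807303 and 1197355 and 925269, 963585 and 1115055, was lower in astrocyte sEVs (-2.05 ± 0.43, adjusted p = 0.0101). Rcc2 and Apoe were picked for the size of their difference and are shown beside the others.

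**Figure D5:**
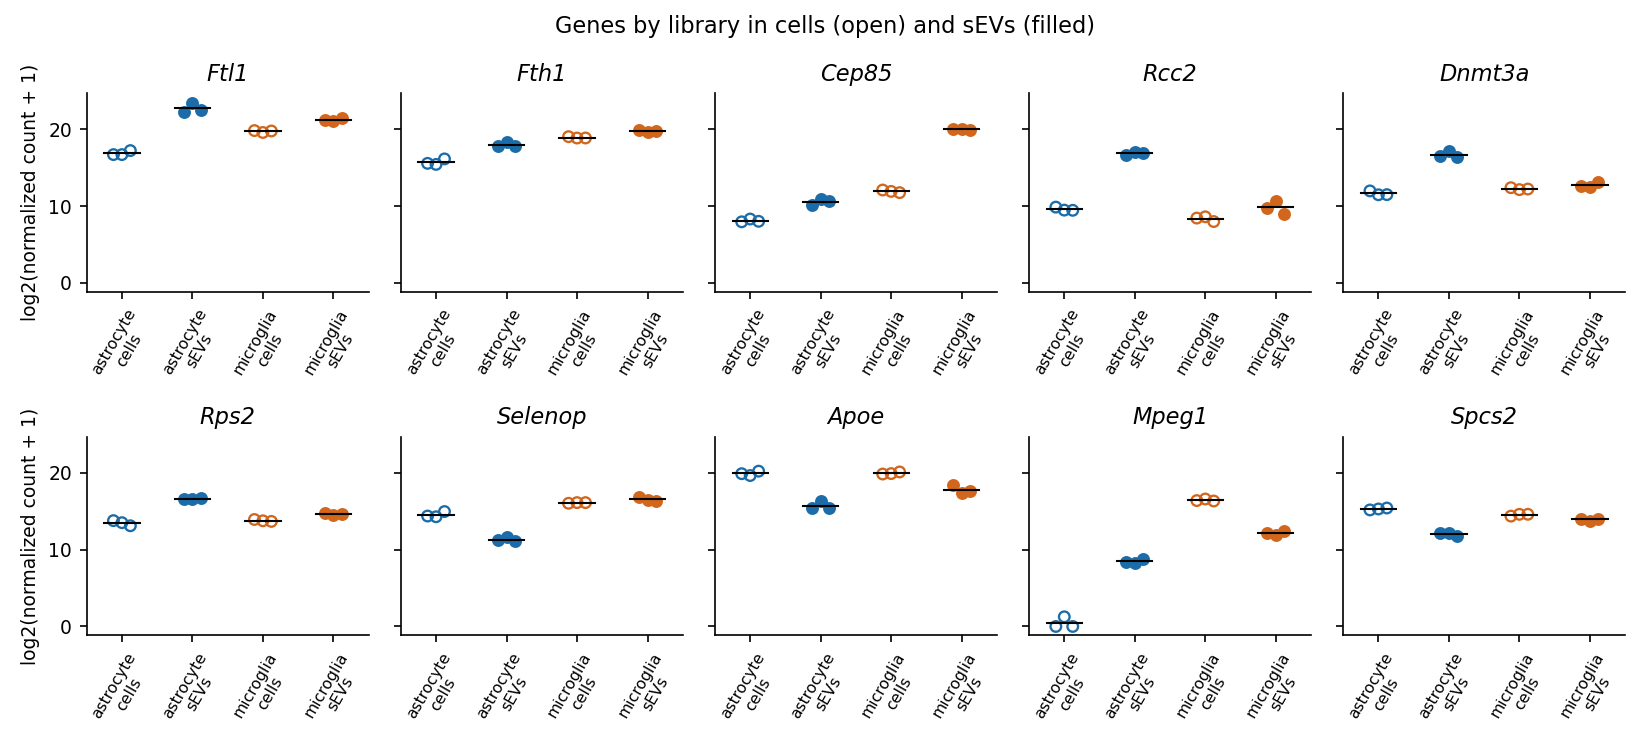
Log2(normalized count + 1) of 10 genes in the 3 libraries each of astrocyte cells, astrocyte sEVs, microglia cells and microglia sEVs; each point is 1 library, open for cells and filled for sEVs, and the bar is the mean. Ftl1 is higher in microglia among the cells and higher in astrocyte sEVs among the sEVs, and Cep85 stands far above the other groups in microglia sEVs alone.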

How the data were processed

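Per the submitters' processing notes, reads were processed with Salmon 1.8.0, DESeq2 and the GRCm39 build. The deposited table holds a normalized count (unit signal, scaled by the authors over all 18 libraries) for each of 54307 genes, and group means. In the deposited microglia sEV mean the third addend is the value of the next row, so no mean column was used. Whole reads could not be recovered from the values, so no count model was run.

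From the table, log2(count + 1) of the genes at 10 or more in at least 3 of the 6 libraries was fitted with limma 3.58.1 (R 4.3.3), with a variance trend and Benjamini-Hochberg adjustment over all genes tested, at a threshold of 0.05. The sEV minus cell difference was an interaction term over 12 libraries and 16817 genes. The scripts were tested on simulated data. Symbols came from the table (32514 genes) or, by gene ID, from a reference table (19622). Genes were named by rule: the 12 largest differences each way with a mean of at least 50 and no overlap (3 and 1 predicted genes, clones or pseudogenes left out), the 10 highest means of each group, up to 6 members of each list by p, the defining markers, and 8 genes each way for the sEV minus cell difference; a few of these are not reported here. Further list members were named after their values were seen (Actb, Arpc1a, Arpc1b, Atp6v1a, C1qb, Ccl7, Ccl9, Cmpk2, Ctsd, Ctss, Cxcl10, Dstn, Eef2, Eif4b, Fcer1g, Fcgr3, Icam1, Ifih1, Ifit3, Il12b, Il1a, Irak1, Irf7, Isg15, Lif, Mbp, Nfkb1, Oas2, Pdcd6ip, Psmb8, Psmb9, Ptgs2, Sall1, Slc11a1, Stat2, Tnf, Tnfaip3, Usp18, Zbp1). The members and lists were chosen with earlier results of these data known. Alternatives were other pseudocounts, filters, scalings, models and sets of libraries, and leaving out each replicate.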

Additional observations from a re-analysis of the deposited data

Results flagged for a closer look

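For 53 of the genes with values in the report, the difference between astrocyte and microglia sEVs was not the same as that between the cells. The test was limma's, of one difference minus the other, and it called 11.7% of all genes tested. Some of the 53 were named because of a small p-value or a large difference in this same test. Their number therefore cannot be compared with that share. Adjusted p-values are in parentheses here. The sEV difference lay further toward astrocytes than the cell difference for 5031425E22Rik (0.0219), Atp5a1 (0.00384), Btg2 (0.0106), Ccl5 (0.000192), Cd14 (0.00393), Cdkn1a (7.31e-05), Dnmt3a (3.88e-05), Dstn (0.0486), Eef1a1 (0.000105), Eef2 (0.000165), Eif4b (0.00484), Fam168b (3.69e-05), Fat3 (3.69e-05), Fth1 (0.00553), Ftl1 (6.55e-05), Gm42047 (0.00344), Itgam (0.0236), Lif (6.12e-05), Lifr (3.69e-05), Malat1 (0.00385), Mpeg1 (1.53e-05), Nes (0.00167), Npc1 (5.74e-05), Pea15a (0.0424), Peg12 (0.000158), Phyhipl (0.00347), Rcc2 (0.00011), Rpl9 (5.81e-05), Rplp0 (8.81e-05), Rps2 (6.27e-05), Rsad2 (0.000306), Sall1 (0.00216), Sall2 (0.0187), Xist (0.000211), Zfp660 (0.000848) and Zhx3 (0.0103). It lay further toward microglia for Apoe (0.0101), Arhgdib (5.74e-05), Cd63 (0.00083), Cd81 (0.0391), Cep85 (1.53e-05), Ddost (0.000389), Eif4a1 (0.00291), Gbp9 (0.000983), Gja1 (0.0308), Hmox1 (0.0321), Hspa8 (6.55e-05), Sdc4 (0.00771), Selenop (4.86e-05), Sod2 (0.00263), Sparcl1 (0.000272), Spcs2 (3.69e-05) and Srsf7 (0.000257). All 53 kept their direction under every alternative run, and 35 kept their call. The call was lost under at least 1 alternative for 5031425E22Rik, Atp5a1, Btg2, Cd14, Cd81, Dstn, Eif4a1, Fth1, Gbp9, Gja1, Hmox1, Hspa8, Itgam, Pea15a, Phyhipl, Rsad2, Sall2 and Sod2. Among these, Fth1, Hspa8, Eif4a1 and Sod2 lost it only without a variance trend (adjusted p = 0.0761, 0.0642, 0.156 and 0.131).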

How the results depend on the processing

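The number of genes called between the sEV groups was 4824 and kept within 1.5 times that under every alternative but one: with all 12 astrocyte and microglia libraries in the fit it was 7679, of which 5201 were higher in astrocyte sEVs. Leaving out 1 replicate gave 3829 to 4729 called, with 2303 to 3271 higher in astrocyte sEVs and 1458 to 1610 higher in microglia sEVs. For the sEV minus cell difference, the 684 genes below became 391 with a minimum of 50, 1134 after quantile normalization and 1090 with equal totals. The 1286 above became 1070, 987 and 1070 under those settings, in that order. Leaving out 1 replicate gave 537 to 1069 below, and the causes were not tested. With the replicate number as a block, 4267 genes were called. The numbers share no stated origin, and deviations of same-numbered sEV libraries correlated at 0.04, -0.01 and 0.01, so they were not taken as pairs. Of the 172 tested genes with values in the text, 164 were called, and 155 of the 172 kept direction and call under all 18 alternatives. With the block Ubb was not called (adjusted p = 0.0628) and Oas2 was (0.0485). Of the genes not called as reported, some were called under another choice, with adjusted p-values in parentheses: Glul (equal totals without Ftl1, 0.0352), Aldh1l1 and Cd9 (all 12 libraries, 0.0442 and 0.0246) and Itgam, Oas2, P2ry12 and Cd81 (quantile normalization, 0.00267, 0.00167, 0.00405 and 0.0343). Neat1 turned sign with library weights (log2 difference -0.52) and after quantile normalization (-2.43), and ranged from -2.09 (without microglia sEV replicate 1) to 2.85 over fits without 1 replicate. Ubb turned sign after quantile normalization (0.83), where its adjusted p was 0.0163. Counts of list members stayed within 1.5 times the reported count in 1303 of 1462 cases over 43 lists. Leave-one-out fits kept the genes tested in the full comparison, a choice made after seeing the data, and a group of 2 was assumed to vary like the other. With 3 libraries a group, no permutation test of a library measure can go below 0.1. Precision is limited by that number and by the low counts of genes near 0.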
